A study of Mus musculus with 8 samples.

Results

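Interferon-stimulated genes were examined in mouse interfollicular epidermis, the skin epithelium between the hair follicles. The animals were labelled as wild type or as conditional knockouts for the histone methyltransferase G9a. The set has 41 genes that were chosen by name, for what they are known to do, with earlier results of these data known. Trim30 genes were kept out of it, and Trim30a and Trim30d did differ between the genotypes (given last). Of the 41 genes, 37 were matched to a probe set that the platform annotation gives to 1 gene, out of 17097 genes so matched in all. Oas1a, Bst2, Isg15 and Ifi44 had no such match. The 37 genes were read by 54 probe sets, and the one with the highest mean over the 8 arrays stood for each gene.

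The arrays came from 4 samples of animals labelled G9a cKO, a conditional knockout of Ehmt2, the gene of G9a, and from 4 samples of animals labelled G9a WT. In both genotypes the shaved back was painted every week for 6 weeks with the carcinogen DMBA (0.25 mg/ml) and the tumour promoter TPA (0.02 mg/ml), 200 µl of each in acetone. Painting began at an age of 8 weeks, the tissue was taken before tumours had formed, and the labels give the animals' age as 15 weeks. Unpainted skin was not analysed here, so each comparison is between genotypes within painted skin. The sources used here do not give the driver of the knockout, the deleted part of Ehmt2 or the mouse strain.

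Interferons are secreted proteins that warn cells of viral nucleic acid. Type I interferons signal through the kinases JAK1 and TYK2 to a complex that holds STAT2 and IRF9 and binds the interferon-stimulated response element (ISRE), whereas interferon gamma acts at the gamma-activated site (GAS). The induced genes include sensors of viral RNA, enzymes that block viral replication and the signalling factors themselves. Keratinocytes carry these receptors and sensors. G9a dimethylates H3K9, a mark of silent chromatin. The comparison asks which genes differ in pre-neoplastic epidermis of animals labelled G9a cKO. G9a protein and H3K9 methylation were not measured here.

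The promoters of the set are shown first because interferon signals act at the ISRE and the GAS. The genes were chosen by name and not by these motifs, and not every window holds a match. RefSeq windows (GRCm38.p6) of 250 bases before to 50 bases after each annotated start were at hand for 31 of the 41 genes, in 39 windows. Dhx58, Zbp1, Oas2, Mx1, Mx2, Usp18, Parp9, Parp14, Ifi27l2a and Rtp4 are not in that table. The ISRE was searched as GAAA, then 2 bases of any kind, then GAAA, and the GAS as TTC, then 3 bases of any kind, then GAA, each on both strands. An ISRE match lay in a window of 16 of the 31 genes (51.6%), against 3.99% of all 27025 genes with a window. A GAS match lay in 10 of the 31 (32.3%), against 9.55% of all genes. Both motifs occurred in 5 of the 31 genes, and in Bst2 and Ifitm3 the 2 matches overlapped. A match describes these letters only and does not show that a factor binds there.

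Stretches of 140 bases upstream of the start, 5′ to 3′ on the gene's strand, are given for genes on which the values below turn, with ISRE and GAS matches in capitals. An ISRE on the opposite strand reads TTTC, 2 bases, TTTC. Ifit1 (chr19:34640749-34640888, plus strand), Gbp2 (chr3:142620523-142620662, plus strand) and Rsad2 (chr12:26456453-26456592, minus strand) carry it in that form, and Ifit1 has 2 such matches. Oas3 (chr5:120777685-120777824, minus strand) carries the forward form. The Oas3 stretch, unlike the others, ends 25 bases before the start, and its match begins 75 bases before the start. Gbp7 (chr3:142530196-142530335, plus strand) has 2 GAS matches ahead of 1 ISRE match, and Irf1 (chr11:53769874-53770013, plus strand) has a GAS match 90 bases before the start and no ISRE match in this window.
Ifit1: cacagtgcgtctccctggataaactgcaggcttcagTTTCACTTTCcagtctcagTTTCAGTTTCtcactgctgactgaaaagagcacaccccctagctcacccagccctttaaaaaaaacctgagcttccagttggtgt
Rsad2: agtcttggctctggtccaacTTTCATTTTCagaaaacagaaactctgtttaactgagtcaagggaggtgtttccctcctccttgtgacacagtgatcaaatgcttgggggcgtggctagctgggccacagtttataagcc
Oas3: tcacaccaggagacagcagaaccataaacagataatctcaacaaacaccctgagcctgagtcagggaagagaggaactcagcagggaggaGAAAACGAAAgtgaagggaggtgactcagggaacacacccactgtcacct
Gbp2: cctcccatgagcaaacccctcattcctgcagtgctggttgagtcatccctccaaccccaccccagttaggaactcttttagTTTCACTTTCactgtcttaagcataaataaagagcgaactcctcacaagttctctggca
Gbp7: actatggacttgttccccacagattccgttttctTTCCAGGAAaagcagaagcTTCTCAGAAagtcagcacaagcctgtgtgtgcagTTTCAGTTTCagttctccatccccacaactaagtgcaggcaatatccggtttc
Irf1: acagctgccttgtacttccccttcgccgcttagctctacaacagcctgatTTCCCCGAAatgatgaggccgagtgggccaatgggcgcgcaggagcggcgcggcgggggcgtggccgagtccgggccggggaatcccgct

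Ehmt2 itself, the targeted gene, had 2 probe sets. One read 7.07, 6.72, 6.35 and 6.30 (log2) in cKO 1 to 4 and 9.77, 9.25, 9.69 and 9.26 in WT 1 to 4, a difference of -2.88 (SE 0.19; limma adjusted p over all probe sets 0.000244), while the other differed by 0.01 (SE 0.06). Where either probe set lies relative to the deleted part is not given in the sources used here. The deposited values run from 3.06 to 13.0 on the log2 scale, and array medians lie between 5.72 and 5.80. On the first principal component over all genes (36.5% of the variance), WT 4, at 7.37, lay among the cKO arrays (-0.89 to 12.7), apart from the other WT arrays (-14.7 to -10.0). cKO 2 and WT 4 also stood at opposite ends of the second component (25.0%), at 14.2 and -16.3, and counts and medians of the set are therefore also given without both. Means of 10 keratinocyte markers were 10.91 to 11.02 on every array, with Krt5 and Krt14, the basal keratins, at 12.5 to 12.9, while means of 5 general leukocyte markers were 4.58 to 4.70, with Ptprc (CD45) at 3.40 to 3.63.

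No interferon-stimulated gene of the set, which leaves out the Trim30 genes, passed the test for a difference between cKO and WT. Of the 37 measured genes, 0 had a limma adjusted p under 0.05 over all genes, where 0.977% of the 17097 genes did (167, of which 135 were higher in cKO, 0.79%, and 32 lower, 0.187%), and 1, Eif2ak2, had an unadjusted p under 0.05, where 9.33% of all genes did. The lowest adjusted p of the 37 was 0.531. In no gene of the set did the 4 cKO arrays lie clear of the 4 WT arrays, which they did in 5.72% of all genes. Group means were higher in cKO for 21 genes and higher in WT for 16. The median difference was 0.03 (log2, cKO minus WT), beside 0.01 over all genes, and single genes ran from -0.24 for Oas3 to 0.25 for Zbp1. Among the 54 probe sets 0 passed (limma, adjusted over all 45037 probe sets, of which 0.466% passed), and 0 had an unadjusted p under 0.05, against 7.98% of all probe sets.

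A p above the threshold does not show that levels were equal, so the intervals bear on how large a difference could have been missed. The 95% interval of limma, not adjusted for the number of genes, lay within 2-fold in either direction for all 37 genes. It lay within 1.5-fold for 32 of them, among them the dim genes Ifit2, Gbp3 and Oasl1, whose narrow intervals may not bound a real difference. The exceptions were Rsad2, Dhx58, Gbp2, Ifit1 and Zbp1, the genes with the largest SE of the set. The widest bounds were 0.75 for Rsad2 (1.69-fold higher in cKO) and -0.72 for Dhx58 (1.65-fold lower). Without cKO 4 the median difference was 0.09 and without WT 3 it was -0.0021, with 0 genes passing in both cases. Leaving out both cKO 2 and WT 4 gave a median of -0.01 and 1 gene past the threshold, Gbp2, described with its family below.

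**Figure D1:**
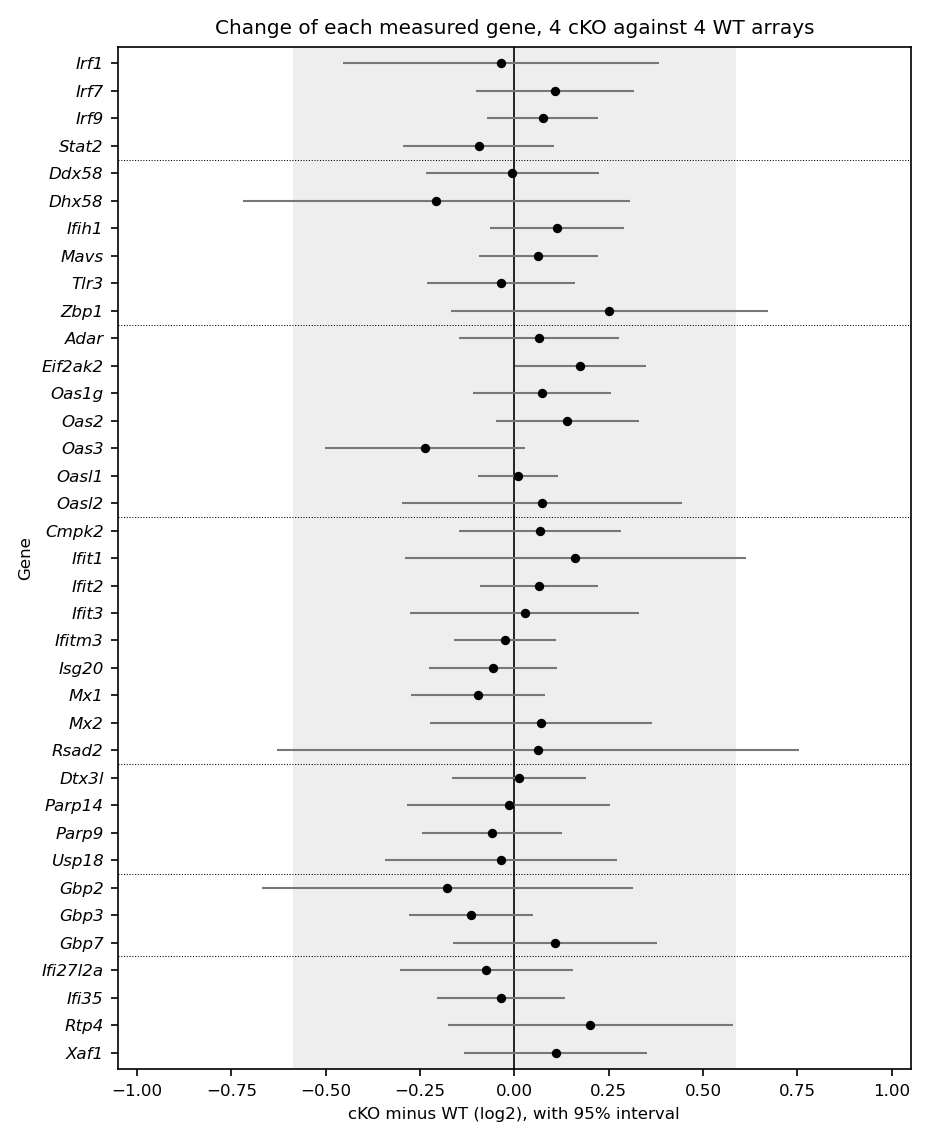
The horizontal axis gives cKO minus WT (log2) for each of the 37 measured genes, ordered by role, with dotted lines between roles. Points are differences of the means of 4 arrays each, bars are 95% intervals and the grey band marks 1.5-fold in either direction. The point estimates lie between -0.24 and 0.25, and the bars of 5 genes leave the band.

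Among the factors that carry the signal, none of the 4 measured passed, and their differences ran from -0.09 to 0.11 (median 0.02). Stat2, a factor specific to type I and type III interferon signalling, read 9.17, 9.21, 9.10 and 8.80 in cKO 1 to 4 and 9.28, 9.16, 9.15 and 9.07 in WT 1 to 4. Its difference was -0.09 (SE 0.09; limma adjusted p = 0.876), and 3 of the 4 cKO arrays fell within the WT range. Without cKO 4, the array outside it, the difference was -0.0039. Irf7, the factor that amplifies interferon alpha production, read 6.80, 7.03, 6.91 and 6.67 in cKO and 6.97, 6.66, 6.66 and 6.69 in WT, a difference of 0.11 (SE 0.09). The WT 1 array was the high one of its group. Irf9, the DNA-binding partner of STAT2, differed by 0.08 (SE 0.07).

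Irf1, a factor induced mainly by interferon gamma, had a different order of arrays. It read 10.63, 10.70, 10.27 and 10.06 in cKO 1 to 4 and 10.63, 10.62, 10.62 and 9.93 in WT 1 to 4. WT 4 lay far below the other WT arrays, which nearly coincided, while the cKO arrays spread from 10.06 to 10.70. The difference of the means was -0.03 (SE 0.19; limma adjusted p = 0.987), smaller than the SD within either group (0.30 in cKO and 0.34 in WT, n = 4 each). Without both cKO 2 and WT 4 it was -0.30 (SE 0.12; limma adjusted p = 0.257), without WT 4 alone -0.21 and with array weights -0.21.

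Of the 6 sensors of nucleic acid and their adaptor, 0 passed, and the group means were higher in cKO for 3 and in WT for 3. Zbp1, a sensor of Z-form nucleic acid that can start necroptosis, had the largest difference of the whole set. It read 7.40, 7.68, 7.48 and 6.94 in cKO 1 to 4 and 7.32, 7.38, 7.16 and 6.64 in WT 1 to 4, which gives 0.25 (SE 0.19; limma adjusted p = 0.808; exact two-sided permutation p = 0.343 over 70 arrangements). In both groups array 4 was the low one, and the ranges overlapped. The second probe set of Zbp1 differed by 0.05, and without cKO 2 and WT 4 the first stood at -0.01. Dhx58 (LGP2), a helper of the RNA sensors, read 6.00, 5.96, 6.42 and 5.47 in cKO and 6.56, 6.38, 5.62 and 6.11 in WT. Its difference of -0.21 (SE 0.23) was smaller than the SD within groups, 0.39 and 0.41, and its other probe sets stood at -0.11 and 0.08.

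Ddx58, the gene of the RNA sensor RIG-I, read 8.74, 8.40, 8.63 and 8.37 in cKO 1 to 4 and 8.69, 8.55, 8.32 and 8.61 in WT 1 to 4, a difference of -0.01 (SE 0.10). High and low arrays occurred in both groups. Ifih1, the gene of the sensor MDA5, differed by 0.11 (SE 0.08), Mavs, the adaptor of both sensors at the mitochondrion, by 0.06 (SE 0.07), and Tlr3, the endosomal receptor of double-stranded RNA, by -0.04 (SE 0.09).

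The role of double-stranded RNA effectors and RNA editor, with 7 genes measured, held the gene with the lowest p of the set. Eif2ak2, the gene of PKR, which halts translation on double-stranded RNA, read 7.19, 7.12, 7.04 and 7.06 in cKO 1 to 4 and 7.02, 7.06, 6.70 and 6.92 in WT 1 to 4. The difference was 0.18 (SE 0.08), with an unadjusted limma p of 0.0489, an adjusted p of 0.531 and an exact two-sided permutation p of 0.0857. WT 3 was the low array, and the highest WT array exceeded the lowest cKO array. Oas3, an oligoadenylate synthetase that activates RNase L, stood on the other side of 0, at -0.24 (SE 0.12; limma adjusted p = 0.612; exact p = 0.114). It read 7.24, 7.33, 7.36 and 6.88 in cKO and 7.70, 7.35, 7.33 and 7.37 in WT. cKO 4 lay at the low end and WT 1 at the high end, and the other arrays of both groups lay between 7.24 and 7.37.

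Its relatives Oas2 and Oasl2 differed by 0.14 (SE 0.08) and 0.07 (SE 0.16). Oas1g, one of a cluster of closely related Oas1 genes whose transcripts a probe set may share, read 10.78, 10.66, 10.76 and 10.46 in cKO 1 to 4 and 10.66, 10.69, 10.46 and 10.54 in WT 1 to 4, a difference of 0.07 (SE 0.08). The lowest array of each group read the same to 2 decimals. Adar, the gene of the RNA editor ADAR1, differed by 0.07 (SE 0.09) at the probe set standing for it and by -0.18 at its lowest. Oasl1 stood between 4.12 and 4.28, near the low end of the scale, and differed by 0.01 (SE 0.05).

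Antiviral effectors form the largest role, with 9 of 10 measured, and 0 passed. Ifit1, which binds viral RNA that lacks the cap methylation of host RNA, had the largest difference of the role. It read 7.14, 7.15, 7.36 and 6.66 in cKO 1 to 4 and 7.44, 6.87, 6.48 and 6.88 in WT 1 to 4, so that the highest and the lowest array were both WT. The difference was 0.16 (SE 0.20; limma adjusted p = 0.920), and it was 0.016 without WT 3 and 0.34 without WT 1. Its partner Ifit3 had the same low array in cKO, at 6.43, and differed by 0.03 (SE 0.13). Ifit2 stood between 3.55 and 3.84 on all arrays, levels that may be background.

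Rsad2 (viperin), which makes a chain-terminating nucleotide, varied most of all 37 genes and yet had nearly equal group means. It read 7.74, 8.00, 8.11 and 6.93 in cKO 1 to 4 and 8.37, 7.70, 7.09 and 7.37 in WT 1 to 4. The range over the 8 arrays was 1.44 (log2), the SD within groups was 0.53 in cKO and 0.55 in WT, and the difference of the means was 0.06 (SE 0.31). Its other probe sets stood at 0.06 and 0.03. Cmpk2, its neighbour on the chromosome and the supplier of its substrate, differed by 0.07 (SE 0.10).

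The dynamin-like antiviral GTPases Mx1 and Mx2 differed by -0.10 (SE 0.08) and 0.07 (SE 0.13). Mx1 read 5.48, 5.40, 5.42 and 5.19 in cKO 1 to 4 and 5.53, 5.30, 5.46 and 5.57 in WT 1 to 4, with cKO 4 below the rest. Ifitm3, which blocks the fusion of viruses with endosomes, had the highest level of the set. It read 12.26, 12.24, 12.21 and 12.10 in cKO and 12.26, 12.34, 12.21 and 12.10 in WT, a difference of -0.02 (SE 0.06). The exonuclease gene Isg20 stood at -0.06 (SE 0.08), and was the only gene of the set for which cKO 4 was the highest cKO array.

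In the ISG15 and ADP-ribosylation system 4 of 5 genes were measured and 0 passed. Usp18, the protease that removes ISG15 and restrains the type I receptor, read 7.67, 7.47, 7.79 and 7.34 in cKO 1 to 4 and 7.89, 7.75, 7.33 and 7.44 in WT 1 to 4. The difference was -0.04 (SE 0.14), and the groups covered nearly the same range. Parp9 and its partner, the ubiquitin ligase gene Dtx3l, differed by -0.06 (SE 0.08) and 0.01 (SE 0.08). Parp9 read 8.22, 8.09, 8.08 and 7.85 in cKO and 8.18, 8.21, 8.11 and 7.98 in WT. Parp14, a neighbouring ADP-ribosyltransferase gene, read 9.70, 9.47, 9.38 and 9.12 in cKO and 9.62, 9.24, 9.45 and 9.42 in WT, a difference of -0.01 (SE 0.12). In Parp9 and Parp14 the lowest of the 8 arrays was cKO 4.

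Guanylate-binding proteins attack the membranes of intracellular pathogens and are strongly induced by interferon gamma. Gbp2 read 9.39, 9.70, 9.18 and 8.96 in cKO 1 to 4 and 9.65, 9.66, 9.79 and 8.83 in WT 1 to 4. With all 8 arrays the difference was -0.18 (SE 0.22; limma adjusted p = 0.920). Without cKO 2, the high array of its group, and WT 4, the low array of its group, it was -0.53 (SE 0.10; limma adjusted p = 0.0390), the only call for a gene of the set in 18 alternative settings. In that setting 430 of all genes passed, against 167 with all 8 arrays. Without WT 4 alone Gbp2 stood at -0.40 (limma adjusted p = 0.278), the lowest adjusted p of a gene of the set in the 8 settings that leave out 1 array. Both arrays were named for their place on the principal components of all genes, and in this gene they are also the extreme ones. Those components also hold the genotype difference, so calls made without the 2 arrays are not independent evidence of one. Some probes of this Gbp2 probe set may also bind other transcripts, as its _x_at ending shows, and the second probe set differed by -0.14 with all arrays.

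Gbp7 differed by 0.11 (SE 0.12) and by -0.02 at its second probe set. Gbp3 read 4.08, 3.87, 3.89 and 3.79 in cKO 1 to 4 and 3.93, 4.14, 4.07 and 3.94 in WT 1 to 4, a difference of -0.11 (SE 0.07) at levels that may be background. Of the remaining induced genes, Rtp4, a chaperone of receptors, read 10.07, 10.03, 10.03 and 9.45 in cKO and 10.03, 9.84, 9.51 and 9.40 in WT, a difference of 0.20 (SE 0.17; limma adjusted p = 0.851). cKO 1 to 3 and WT 1 lay together at the top, cKO 4, WT 3 and WT 4 at the bottom and WT 2 between. Without both cKO 2 and WT 4 the difference was 0.057. Xaf1, a proapoptotic partner of XIAP, read 8.43, 8.34, 8.51 and 8.15 in cKO and 8.44, 8.34, 7.96 and 8.26 in WT, a difference of 0.11 (SE 0.11). Ifi27l2a read 10.76, 10.68, 10.72 and 10.43 in cKO and 10.88, 10.86, 10.47 and 10.68 in WT, a difference of -0.07 (SE 0.10), and Ifi35 differed by -0.04 (SE 0.08).

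**Figure D2:**
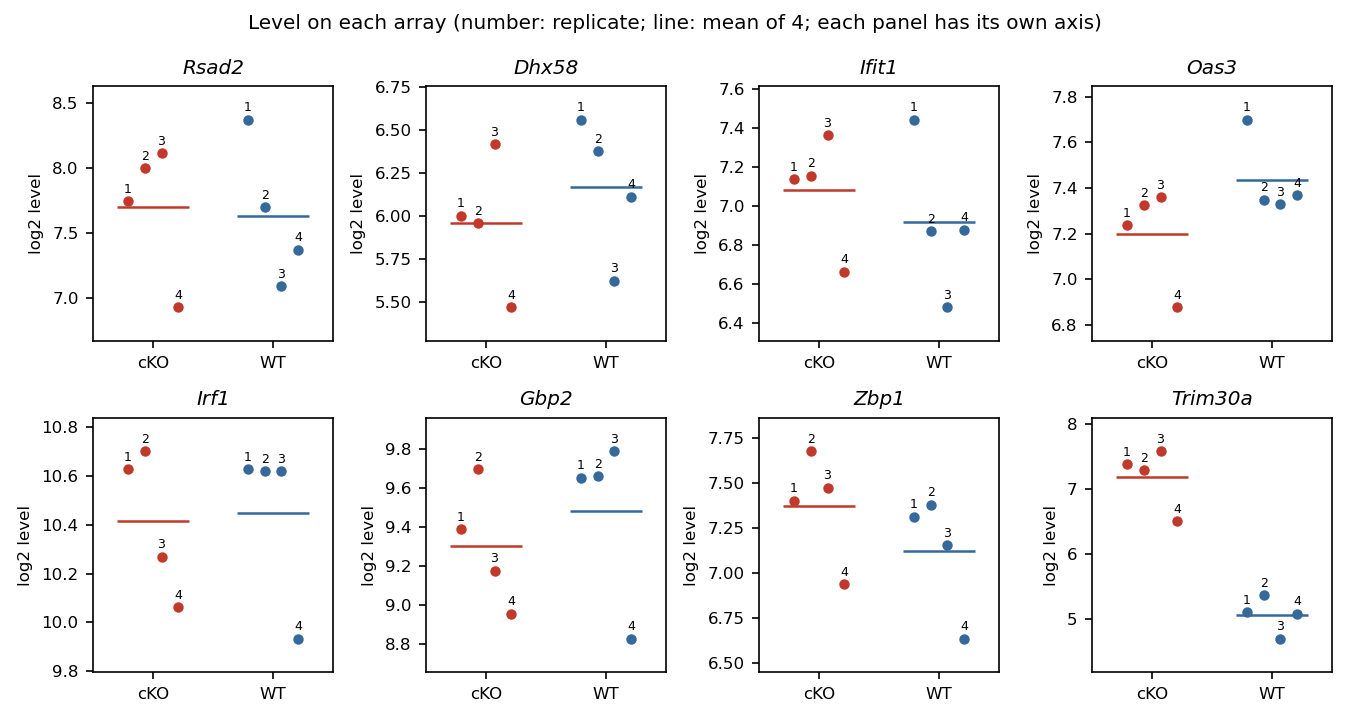
Each panel shows the log2 level of 1 gene on its own axis, with the 4 cKO arrays in red and the 4 WT arrays in blue, the replicate number beside each point and a line at the group mean. Arrays of both groups overlap in Rsad2, Dhx58, Ifit1, Oas3, Irf1, Gbp2 and Zbp1, and the 4 cKO arrays lie above the 4 WT arrays in Trim30a.

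The genes of the set differed between arrays of 1 genotype more than other genes did. The median SD within groups was 0.16 for the 37 genes and 0.09 for all genes (log2), and the median range over 8 arrays was 0.42 against 0.26. The range was above 1 for Rsad2, Dhx58 and Zbp1, 3 of 37 genes, where it was for 1.26% of all genes. All genes here include the dim ones, and the comparison was not matched for level.

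These differences ran in parallel through the set. cKO 4 was the lowest of the cKO arrays in 33 of the 37 genes, where it was in 36.8% of all genes. WT 1 was the highest of the WT arrays in 22 of 37, against 12.2% of all genes. WT 3 was the lowest WT array in 19 genes and WT 4 in 12, against 24.1% and 30.5% of all genes. The mean deviation of the 37 genes from their own 8-array means was 0.10, 0.07, 0.10 and -0.23 in cKO 1 to 4 and 0.16, 0.03, -0.12 and -0.11 in WT 1 to 4. The highest array was thus WT and the lowest cKO, and the group means were 0.01 and -0.01, with SDs over the arrays of 0.16 in cKO and 0.14 in WT. Over all genes the same mean deviation lay between -0.02 and 0.04. The labels name cells of the interfollicular epidermis, whose RNA was measured in bulk. A change in the share of cells that make these transcripts and a change in their level per cell therefore cannot be told apart.

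**Figure D3:**
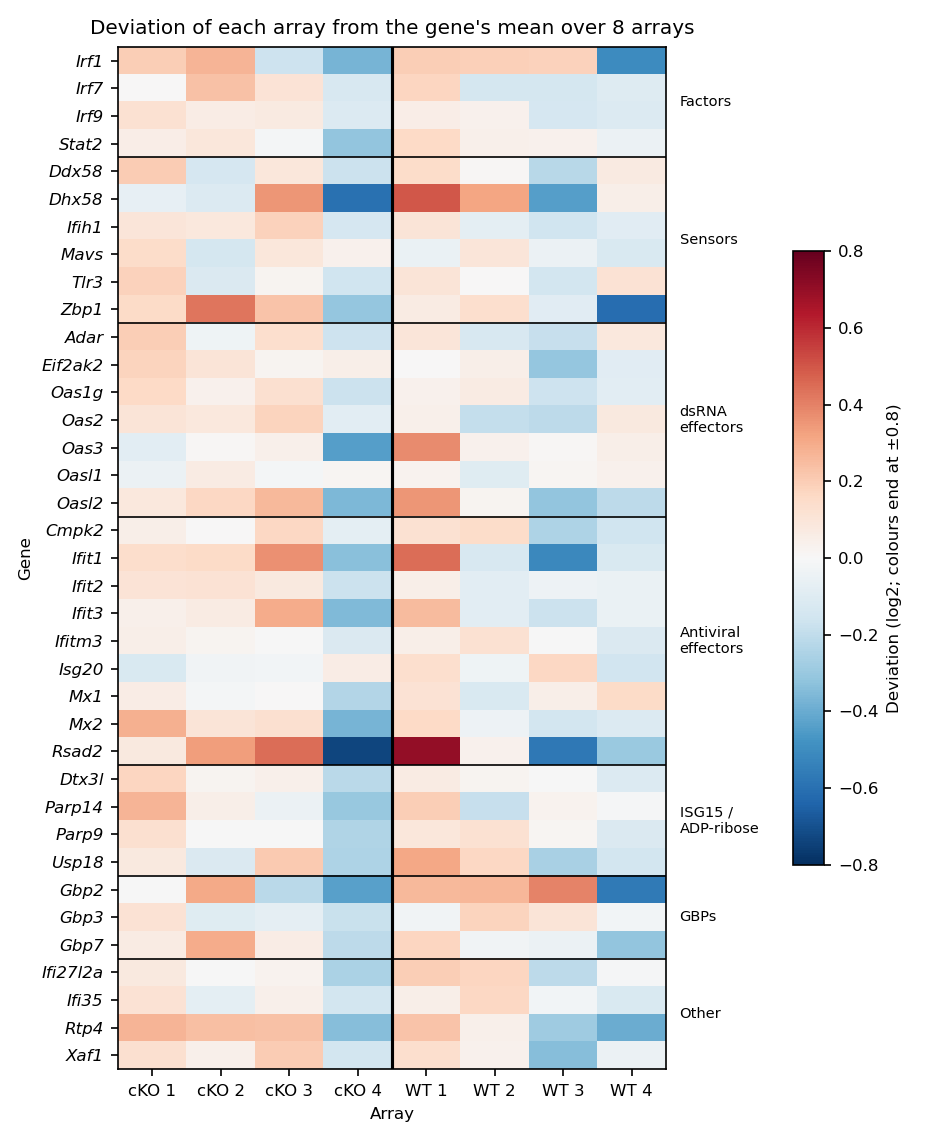
Rows are the 37 measured genes by role, columns the 8 arrays, and colour gives the deviation of an array from the gene's own mean over 8 arrays (log2, red above and blue below). The cKO 4 column is blue in most rows and the WT 1 column red. In the WT 3 column 10 genes lie above their own mean and in the WT 4 column 8.

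The lowest WT array was not the same in every gene. WT 3 was lowest in Ifit1, Ifit3, Mx2, Oas1g, Oas2, Oas3, Oasl2, Irf9, Rsad2, Usp18, Ddx58, Ifih1, Dhx58, Ifi27l2a, Xaf1, Cmpk2, Eif2ak2, Adar and Tlr3. WT 4 was lowest in Irf1, Gbp2, Gbp7, Zbp1, Rtp4, Stat2, Parp9, Dtx3l, Ifi35, Ifitm3, Isg20 and Mavs, a share near that over all genes. Only 10 genes in WT 3 and 8 in WT 4 lay above their own mean, so many were below it in both. Among the WT arrays Gbp2 was highest in WT 3 and lowest in WT 4.

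Markers of other cells were set beside these patterns, and their part in them was not tested. Means of the dendritic cell list, 6 of 7 genes measured, were 7.21, 7.32, 7.03 and 6.79 in cKO 1 to 4 and 6.92, 7.01, 7.13 and 6.43 in WT 1 to 4. The lowest array was WT 4 and the lowest cKO array cKO 4, as in Gbp2 and Irf1. Its MHC class II genes, which interferon gamma also induces, ran over the 8 arrays from 7.26 to 9.16 for Cd74, from 7.65 to 9.11 for H2-Aa and from 9.10 to 10.75 for H2-Ab1, each lowest in WT 4. The other genes of the list varied less. Itgax ran from 5.14 to 5.32, lowest in WT 1, and Flt3 from 4.82 to 4.93, lowest in cKO 4. Cd207 (langerin), the defining marker of Langerhans cells, was at most 4.78 on any array and lowest in cKO 4. Means of the plasmacytoid dendritic cell list lay between 6.37 and 6.44 on all arrays, with 4 of 5 genes measured. Those of 6 T cell markers lay between 5.19 and 5.34, of 6 macrophage and monocyte markers between 4.72 and 4.85, of 3 neutrophil markers between 4.49 and 4.59 and of 5 mast cell markers between 4.57 and 4.63. Fibroblast, endothelial and melanocyte means lay at 4.72 to 4.87, 4.56 to 4.69 and 5.28 to 5.53. No gene of these marker lists passed the test between cKO and WT.

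The rest of the interferon pathway was followed in 5 lists, in none of which a gene passed over all genes (limma, background 0.977%). Of 21 interferon genes 11 were measured, and 0 had an unadjusted p under 0.05. Ifnb1, the first interferon made on infection, stood between 4.73 and 4.82 in cKO and between 4.68 and 4.90 in WT. Ifng, interferon gamma itself, stood between 4.29 and 4.48 in cKO and between 4.36 and 4.46 in WT. Both may be background. The largest differences of the list were -0.18 (SE 0.09) for Ifnab and 0.11 for Ifna7 (SE 0.07) and Ifna5 (SE 0.09).

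Among receptors, kinases and STATs 10 of 11 genes were measured, 0 with an unadjusted p under 0.05. The largest differences were -0.14 (SE 0.09) for Jak2, a kinase of the interferon gamma receptor, 0.13 (SE 0.06) for the receptor chain gene Ifnar1 and -0.12 (SE 0.09) for Stat3. Jak2 passed without both cKO 2 and WT 4, at -0.27 (limma adjusted p = 0.0368), a setting in which 430 of all genes passed. The 12 genes that restrain the pathway were all measured, 0 with an unadjusted p under 0.05. Socs3, an inhibitor of JAK kinases, read 9.28, 9.38, 8.61 and 8.70 in cKO 1 to 4 and 9.48, 9.56, 9.48 and 8.67 in WT 1 to 4. WT 4 was the low array of its group, as in Irf1, and the difference was -0.31 (SE 0.23). The DNA exonuclease gene Trex1 and Samhd1, a dNTP hydrolase gene, stood at -0.17 (SE 0.15) and -0.21 (SE 0.16). Without cKO 2 and WT 4 both passed, at -0.41 and -0.46 (limma adjusted p = 0.0126 and 0.0255). These calls, like that of Jak2, rest on leaving out arrays that were picked from the same values.

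Of 19 genes that start interferon production 17 were measured. Among these, 2 had an unadjusted p under 0.05 (9.33% of all genes) and 2 had groups that did not overlap (5.72% of all genes). Both times these were Ifi204 and Tlr8, which differed in opposite directions. Ifi204, a DNA sensor of the interferon-inducible HIN family, read 3.89, 4.47, 4.45 and 4.06 in cKO 1 to 4 and 3.80, 3.76, 3.71 and 3.61 in WT 1 to 4. All 4 cKO arrays lay above the WT arrays, at levels that may be background, and the difference was 0.50 (SE 0.13; limma adjusted p = 0.146). It passed without cKO 1 (0.61, limma adjusted p = 0.0446) and with array weights (0.59, limma adjusted p = 0.0209). In these settings 138 and 604 of all genes passed, against 167 in the main fit. Tlr8 was lower in cKO, at -0.11 (SE 0.05, limma adjusted p = 0.518), also at levels that may be background. Its highest cKO array and lowest WT array both read 4.36 to 2 decimals. Trim25, the ubiquitin ligase that activates RIG-I, stood at -0.19 (SE 0.12) and the kinase gene Tbk1 at -0.14 (SE 0.11).

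A list of 54 other interferon-induced genes, of which 45 were measured, had 0 past the threshold, 8 with an unadjusted p under 0.05 (9.33% of all genes) and 6 whose groups did not overlap (5.72% of all genes). The median difference was 0.06. Ddx60, a helicase that aids RIG-I, read 5.63, 5.47, 5.71 and 5.11 in cKO 1 to 4 and 5.01, 4.92, 4.64 and 4.97 in WT 1 to 4, a difference of 0.60 (SE 0.13; limma adjusted p = 0.0843). The groups did not overlap, and the low array in each was cKO 4 and WT 3, as in Rsad2. It passed without cKO 4 (0.72, limma adjusted p = 0.0133) and with array weights (0.73, limma adjusted p = 0.0150). In these settings 152 and 604 of all genes passed, against 167 in the main fit. The lowest adjusted p of the list, 0.0703, belonged to Ifi27, at 0.24 (SE 0.05). Tgtp1, a GTPase induced by interferon gamma, read 7.43, 7.96, 7.38 and 6.90 in cKO and 7.10, 7.12, 7.37 and 5.69 in WT, a difference of 0.59 (SE 0.35). WT 4 is the low array, and the difference was 0.22 without it and 0.035 without both cKO 2 and WT 4. Samd9l, a growth-restraining gene, stood on the other side, at -0.55 (SE 0.16; limma adjusted p = 0.215). Mean deviations of the 45 genes were 0.11, 0.15, 0.09 and -0.15 in cKO 1 to 4 and 0.07, 0.00, -0.07 and -0.21 in WT 1 to 4, with cKO 4 the lowest cKO array in 37 genes and WT 4 the lowest WT array in 27.

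**Figure D4:**
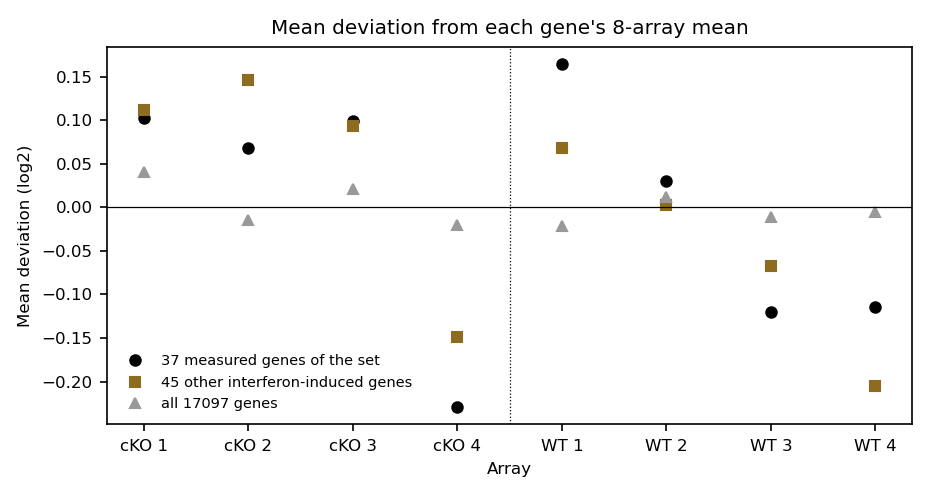
The vertical axis gives the mean deviation from each gene's own 8-array mean (log2) on each of the 8 arrays, for the 37 measured genes of the set (circles), 45 other interferon-induced genes (squares) and all 17097 genes (triangles). The circles run from -0.23 in cKO 4 to 0.16 in WT 1, and the triangles stay between -0.02 and 0.04.

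Trim30a, which is interferon-induced but not in the set, showed a difference between genotypes. It read 7.39, 7.29, 7.58 and 6.50 in cKO 1 to 4 and 5.10, 5.37, 4.69 and 5.08 in WT 1 to 4, with a difference of 2.13 (SE 0.22; limma adjusted p = 0.00195). Within each group its lowest array was the one lowest in Rsad2, cKO 4 and WT 3. The second probe set of Trim30a differed by 1.33 (SE 0.20, limma adjusted p over all probe sets 0.0231). Trim30d, whose probes may share transcripts with Trim30a, differed by 2.16 (SE 0.24, limma adjusted p = 0.00281). It had the same low arrays, at 6.69 and 4.87. Trim30d has 3 probe sets, and over the alternative settings its difference ran from 0.90 to 2.41.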

How the data were processed

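Deposited values were log2 expression per probe set of 8 1-colour arrays, which the authors made with RMA, per the submitters' processing notes. No source used here gives the version or options of RMA, and base 2 was taken from the range of values. RMA normalises between arrays by quantiles, so a shift of all genes together would not be seen. Of 45141 rows 104 control probe sets were left out. Entrez numbers gave current symbols for 28689 of 28898 1-gene probe sets (reference table of assembly GRCm38.p6). Arrays carry no read depth, and their number, 4 a group, limits the precision. The labels do not say whether replicates are separate animals, so p-values reflect only how far these samples spread, which may be technical.

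Genotypes were compared (cKO minus WT) in limma 3.58.1 under R 4.3.3 (lmFit, eBayes, two-sided, Benjamini-Hochberg over all genes, threshold 0.05) on 1 probe set per gene, and on all probe sets. No filter on dim genes was applied. Exact permutation tests ran over the 70 arrangements of 4 against 4, whose smallest two-sided p is 0.0286. The members and lists were chosen with earlier results of these data known. Values on every array are given for the 2 members of each role with the largest difference and the one with the highest level, and up to 3 genes are named per list. Rsad2, Ifit3, Oasl2, Gbp7, Ifnb1, Ifng, Ifi27, Tlr8, the marker genes named and the splits by low array were chosen after values were seen. The procedure was tested on simulated data. Alternatives were a replicate block, a filter, median centring, cyclic loess, a prior with trend, array weights, other probe set rules, other thresholds and arrays left out. Plots were drawn with matplotlib 3.10.9.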

Additional observations from a re-analysis of the deposited data

Results flagged for a closer look

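Among 114 groups of 4 arrays checked, 11 held an array whose gap to the nearest of the others, divided by the group's range, exceeded Dixon's 95% critical value. Chance alone gives about 1 in 20 such groups, or 5.7 here. The genes share arrays, so these are not independent cases. In 5 of the 11 the array was WT 4. It read 9.93 for Irf1 (the others 10.62 to 10.63), 8.83 for Gbp2 (9.65 to 9.79), 8.67 for Socs3 (9.48 to 9.56), 8.29 for Trex1 (8.80 to 8.90) and 5.69 for Tgtp1 (7.10 to 7.37). WT 1 stood above the others for Oas3, at 7.70 (7.33 to 7.37), and for Irf7, at 6.97 (6.66 to 6.69). cKO 4 stood below them for Rtp4, at 9.45 (10.03 to 10.07), for Ifit2, at 3.55 (3.80 to 3.84), and for the mean deviation of the 37 genes, at -0.23 (0.07 to 0.10). WT 2 read 4.12 for Oasl1 (4.23 to 4.25). All values are on the log2 scale.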

How the results depend on the processing

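Under 17 of 18 alternative settings, and at thresholds of 0.10 and 0.20, 0 of the 37 genes passed (limma), and without both cKO 2 and WT 4 it was 1, Gbp2. The labels do not say whether replicate numbers pair the samples, and correlations of same-numbered samples (0.14, 0.18, -0.59 and 0.31) do not settle it. With a replicate block 0 genes of the set and 141 of all genes passed. The block lowered the SE of Zbp1 from 0.19 to 0.062 (limma adjusted p = 0.174). It also lowered that of Irf1 from 0.19 to 0.085 and of Rtp4 from 0.17 to 0.085. The SE of Mx1 rose from 0.079 to 0.082. All genes passing numbered 69 among the brightest 50% of genes, 604 with array weights, 430 without both arrays, 280 and 447 at the looser thresholds, and 81 to 249 with 1 array left out. The median of the set ran from -0.01 to 0.09. Of the 37 genes 18 kept their sign in every setting. With 1 array left out, differences ran from -0.067 to 0.013 for Ifitm3, -0.21 to 0.083 for Irf1, -0.11 to 0.010 for Parp9, -0.13 to 0.061 for Usp18, -0.11 to 0.085 for Parp14, -0.080 to 0.050 for Ddx58, -0.12 to 0.32 for Rsad2, -0.020 to 0.21 for Oasl2, -0.066 to 0.15 for Ifit3 and -0.027 to 0.046 for Ifnb1. Array weights gave 0.065 for Usp18, 0.044 for Dhx58 and 0.062 for Ddx58. Means or medians of probe sets gave 0.019 for Parp14. Without both cKO 2 and WT 4 the values were -0.011 for Zbp1, 0.060 for Ddx58, -0.12 for Rsad2, -0.027 for Oasl2, -0.0043 for Ifit3, -0.061 for Gbp7 and -0.038 for Ifnb1. Ifnb1 stood at -0.011 with median centring and at -0.0067 with cyclic loess. Among genes that kept their sign in that setting, several moved by over 1.5 times: without both arrays Ifitm3 stood at -0.080, Irf7 at 0.031, Stat2 at -0.17, Parp9 at -0.12, Usp18 at -0.058 and Parp14 at -0.038, without cKO 4 Dhx58 stood at -0.042, Ifi27l2a at -0.0016, Mx1 at -0.034 and Oas3 at -0.13, without WT 3 Xaf1 stood at 0.014, Oas1g at 0.031 and Eif2ak2 at 0.10, and without both arrays Socs3 stood at -0.64 and Tbk1 at -0.0041. For these changes the cause was not tested. Signal over background was not given, so dim genes such as Ifit2, Gbp3 and Oasl1 may be unmeasurable here.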
